A study of Mus musculus with 768 samples.

Results

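The genes described here are 8 chromatin regulators, taken by name as members of both families: Ezh2, Ezh1, Eed and Suz12 of the Polycomb repressive complex PRC2, and the histone deacetylases Hdac1, Hdac2, Hdac3 and Hdac4. They are 8 of 25700 genes in the table of read counts, and all 8 passed the filter on low counts. The cells are single Schwann cells (SCs), the glia of peripheral nerve, taken from the sciatic nerve of mice at postnatal day 5. Smart-Seq2, which reads along the whole transcript, was run on 2 plates of 384 wells with 1 sorted cell in each. All animals were of 1 genotype, P0Cre-/+ : ReYFP Tg/+ : βAct-DsRed Tg/+ on a C57bl/6J background, with males and females pooled. P0Cre is active in the SC lineage and switches on the eYFP reporter by which cells were sorted, so that cells without it were not sampled. Each plate is 1 biological replicate of pooled animals, the wells of a plate are not independent samples, and n = 2 plates throughout.

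PRC2 places a repressive methyl mark on histone H3. Ezh2 or Ezh1 is its catalytic subunit, Eed reads the mark and Suz12 holds the core together. Histone deacetylases remove acetyl groups from histones and other proteins: Hdac1 and Hdac2 are close paralogs that work in the NuRD, Sin3 and CoREST complexes, Hdac3 is the enzyme of the NCoR and SMRT co-repressors, and Hdac4 belongs to class IIa, whose members shuttle between nucleus and cytoplasm and bind MEF2 factors. In SCs, Hdac1 and Hdac2 are known to be needed for myelination, Hdac4 and Hdac3 have been linked to its onset and extent, and PRC2 is known to repress genes of the injury programme.

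Of 768 wells, 655 had at least 1500 detected genes and lay outside the plate corners. A rule that uses none of the 8 genes divided them into 4 states: 57 cycling wells (mitosis genes), 228 immature wells (Ncmap under 10 CPM), 149 intermediate wells (Ncmap present, Pmp22 under 30000 CPM) and 221 myelinating wells. CPM, the level used throughout, is the number of reads of a gene scaled to a fixed library total. Ncam1, an adhesion molecule of immature SCs, stood at 516 and 473 CPM in immature wells of replicates 1 and 2 and at 2.98 and 3.89 in myelinating wells. Markers of endothelial, immune, mural, neuronal and skeletal muscle cells reached 5 reads in 3 genes in 0 of 655 wells, and a count of 0 still allows 0.458%. Pecam1, Ptprc, Rgs5 and Rbfox3 of these lists were at 0 in every sum, and other genes of the lists were not. Of the immune list, Csf1r reached 14.1 CPM in immature and Cd68 13.1 in cycling wells. Tubb3, of the neuronal list, had 33.0 and 24.2 CPM in cycling wells. The summed mural list was 1.11 to 15.7 CPM in cycling and immature wells and 46.1 to 65.0 in the other states, mostly Pdgfrb (40.2 and 44.4 in myelinating wells). Kdr, of the endothelial list, had 16.5 and 17.9 CPM in myelinating wells. The part of these levels in the results was not tested. The fibroblast-like list reached 5 reads in 3 genes in 100 wells. Its summed level was 2295 to 3560 CPM in cycling and immature wells, 891 to 1148 in intermediate and 318 to 337 in myelinating ones. Col3a1 and Col1a1 made up most of it, while Dcn was at most 28.7 CPM and Pdgfra at most 0.963 CPM in any sum. This fall runs alongside that of Hdac4 and Hdac1 given below, and its part in them was not tested. Median depth per state and plate was 418998 to 819462 reads per well, highest in myelinating wells.

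The first question was where the catalytic subunits of PRC2 are expressed. Ezh2 (chromosome 6, 47530139 to 47595341, minus strand, GRCm38) was highest in cycling wells, at 179 CPM in replicate 1 and 250 in replicate 2. Immature wells had 51.3 and 50.5 CPM, intermediate wells 37.5 and 45.0, and myelinating wells 32.3 and 44.7. Cycling wells thus lay apart from all others in both plates, and intermediate and myelinating wells overlapped. Against immature wells the log2 change was 2.18 ± 0.31 (SE), 4.54-fold, with an adjusted p of 0.0119 by edgeR's quasi-likelihood test, which called 2.46% of all 13892 genes tested. Ezh2 was the only member called there by edgeR, and it was called under all 17 alternatives with a test (adjusted p 5.15e-09 to 0.0259). Of the other 3 comparisons, those between non-cycling states, none moved Ezh2 by more than 0.17 on the log2 scale in edgeR, with adjusted p of 0.953 to 0.994 (myelinating against immature, -0.02 ± 0.30).

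Cycling wells were also set against the other 2 states, comparisons added after the data had been seen. Ezh2 was higher than in intermediate wells by 2.35 ± 0.31 (adjusted p 0.0024, edgeR) and than in myelinating wells by 2.20 ± 0.31 (adjusted p 0.0022), where 9.42% and 12.7% of all genes were called. These comparisons share the cycling sums with the first one and do not stand apart from it.

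The share of wells with an Ezh2 read was also highest in cycling wells. It was 78.1% (exact 95% interval 60.0 to 90.7) and 88.0% (68.8 to 97.5) of cycling wells, but 24.5% and 24.6% of immature, 29.1% and 47.1% of intermediate and 36.1% and 40.7% of myelinating wells. With every well thinned to 100000 reads, which left out 22 shallower wells, cycling wells kept 71.0% and 87.5%, and the other states lay between 23.1% and 40.6%. Among wells with a read, the median level was 148 and 254 CPM in cycling wells and 163 and 153 in immature ones. Immature wells thus had fewer wells with a read, and those wells reached levels near those of cycling wells in replicate 1 and below them in replicate 2. The reads carry no molecular identifiers, so intervals and limits cover counting error only.

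**Figure D1:**
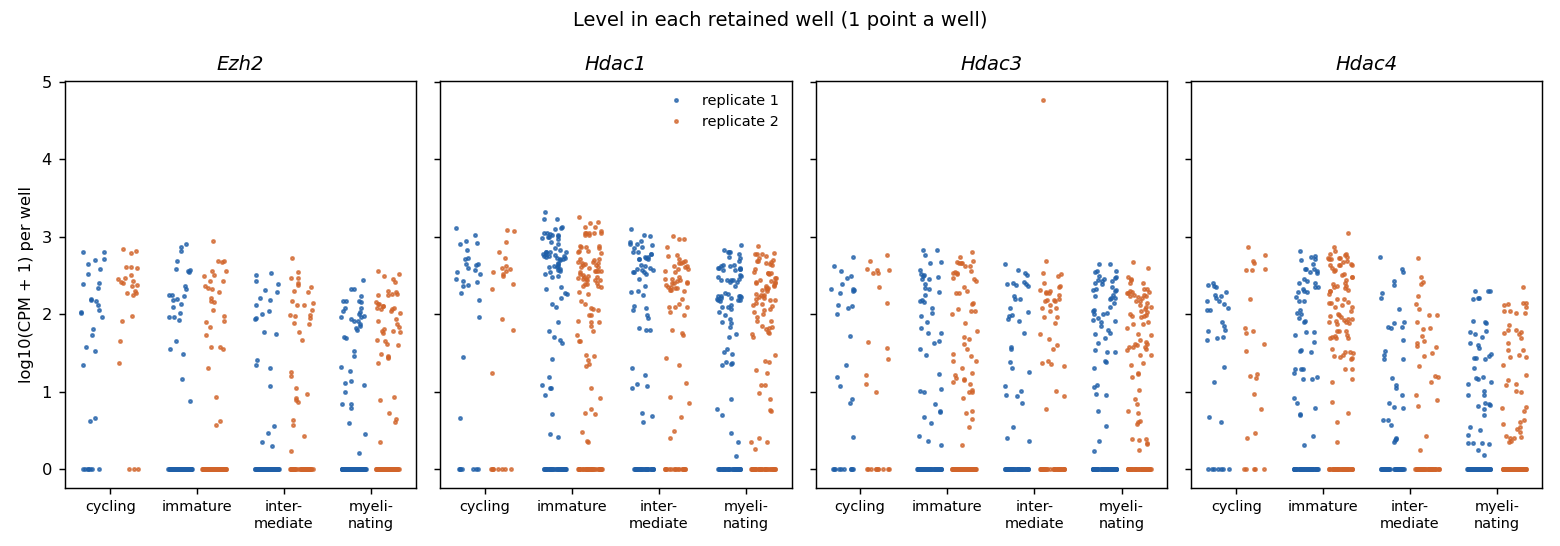
Level of Ezh2, Hdac1, Hdac3 and Hdac4 in each retained well, as log10(CPM + 1), by state (x axis) and replicate (colour), 1 point a well. Ezh2 has few wells at 0 among cycling cells, and 1 intermediate well of replicate 2 stands far above all others for Hdac3.

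Ezh1 (chromosome 11, 101191115 to 101226463, minus strand), the paralog usually found in cells that do not divide, was sparse. It had a read in 61 of 655 wells, against 244 for Ezh2. Its level was 4.23 and 8.86 CPM in immature, 11.1 and 5.21 in intermediate and 10.4 and 12.2 in myelinating wells. In cycling wells replicate 1 had 18.2 CPM, all 361 reads of it in a single well, and replicate 2 had none, below a limit of 0.215 CPM. Over both plates 1 of 57 cycling wells had a read (1.75%, interval 0.0444 to 9.39) and 32 of 221 myelinating wells did (14.5%, 10.1 to 19.8). These shares describe wells and depth was higher in myelinating ones. After thinning, myelinating wells had 16.04% and 7.96%, and cycling wells 3.23% and 0%. No comparison called Ezh1 in edgeR with all wells, where cycling against immature wells gave 0.56 ± 1.77. Without the well with most Ezh1 reads in each of the 8 sums, no cycling well had a read, the sign of that change turned, and Ezh1 was called lower in cycling than in intermediate (adjusted p 0.0323, edgeR) and myelinating wells (adjusted p 0.0172). The wells left out were picked by their own Ezh1 reads, and the only cycling well with a read was among them. These calls therefore cannot decide whether Ezh1 is lower in cycling wells. The fitted changes are against sums at 0 and give no fold.

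Per kilobase of exon, Ezh2 exceeded Ezh1 in each of the 8 sums. The ratio was 10.996 in cycling wells of replicate 1 and at least 1292 in replicate 2, taking 3 reads of Ezh1 as the floor per library. It was 13.5 and 6.35 in immature, 3.77 and 9.63 in intermediate, and 3.45 and 4.09 in myelinating wells. Myelinating wells had the lowest ratio of the 4 states in both plates, a difference that was not tested. Ezh1 had reads in few wells. Without the top well of each sum its mean level fell from 6.54 to 3.33 CPM in immature wells. It fell from 8.15 to 4.55 CPM in intermediate and from 11.3 to 9.17 CPM in myelinating wells. Both genes had reads in the same well in 7 of 108 and 5 of 113 myelinating wells, and in 1 of 57 cycling wells.

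The other core subunits were low. Eed (chromosome 7, 89954654 to 89980983, minus strand) stood at 66.9 and 41.7 CPM in cycling, 27.2 and 26.0 in immature, 26.8 and 14.96 in intermediate and 15.5 and 9.35 in myelinating wells. Cycling wells were above the others in both plates, and no comparison called Eed in edgeR. Cycling against myelinating wells gave 1.84 ± 0.56 (adjusted p 0.0663, edgeR), and this was called in 3 of 17 alternatives, with an adjusted p of 0.0063 by DESeq2. Eed overlaps Gm45120 on the same strand, a gene with 369 reads in all wells, and reads of the overlap cannot be told apart.

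Suz12 (chromosome 11, 79993106 to 80034123, plus strand) had 43.6 and 30.2 CPM in cycling wells against 2.30 and 2.39 in immature ones. It had 4.97 and 4.78 in intermediate and 1.51 and 10.3 in myelinating wells. The log2 change of 4.08 ± 1.07 in cycling against immature wells was the largest of any member there, yet its adjusted p was 0.10 by edgeR and 3.6e-04 by DESeq2, which called 10.6% of genes. Suz12 was called there in 2 of 17 alternatives. A Suz12 read was found in 13 of 32 and 11 of 25 cycling wells, and in 7 of 106 and 13 of 122 immature ones. Reads of Ezh2, Eed and Suz12 together were found in 3 of 32 and 4 of 25 cycling wells, and in 1 of 228 immature wells. Intermediate wells had 0 of 79 and 3 of 70, and myelinating wells 0 of 108 and 2 of 113. After thinning, cycling wells had 1 of 31 and 4 of 24.

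**Figure D2:**
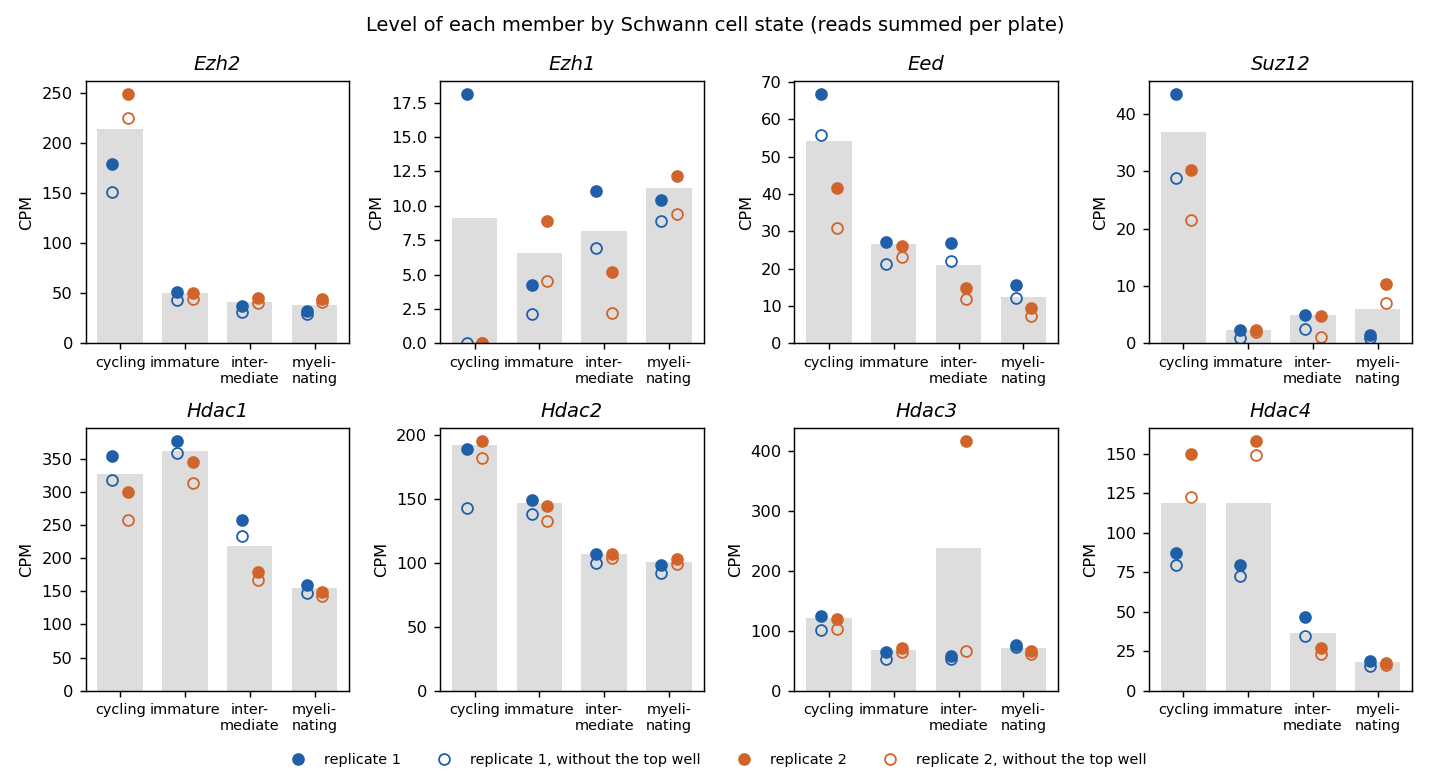
Level of each of the 8 genes in CPM (y axis, from 0, scaled per gene) by state (x axis). Filled points are the 2 replicates, bars their mean, and open points the level after leaving out the well with most reads of the gene in that sum. Ezh2 stands at 179 and 250 CPM in cycling wells, and Hdac4 falls from 79.5 and 158 in immature wells to 18.5 and 17.6 in myelinating ones.

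The promoters of Ezh2, Suz12 and Ezh1 are shown, picked after their levels in cycling wells were known. Each window runs from 250 bases before to 50 bases from the start given by RefSeq (GRCm38.p6), 5′ to 3′ on the gene's strand. Capitals mark matches, on either strand, to E2F motifs (TTTCGCGC, TTTGGCGC or TTTCCCGC), the CHR motif (TTTGAA or TTCGAA) and the CCAAT box (CCAAT), elements known from promoters of cell cycle genes. The Ezh2 window is chr6:47594981-47595280, that of Suz12 chr11:79992856-79993155 and that of Ezh1 chr11:101226414-101226713.
Ezh2: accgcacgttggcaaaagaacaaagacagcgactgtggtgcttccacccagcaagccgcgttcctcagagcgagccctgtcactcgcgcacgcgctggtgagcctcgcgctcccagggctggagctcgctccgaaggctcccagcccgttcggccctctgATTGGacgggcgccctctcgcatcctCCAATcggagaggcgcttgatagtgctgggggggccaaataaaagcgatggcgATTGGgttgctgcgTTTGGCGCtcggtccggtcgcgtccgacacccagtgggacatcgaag
Suz12: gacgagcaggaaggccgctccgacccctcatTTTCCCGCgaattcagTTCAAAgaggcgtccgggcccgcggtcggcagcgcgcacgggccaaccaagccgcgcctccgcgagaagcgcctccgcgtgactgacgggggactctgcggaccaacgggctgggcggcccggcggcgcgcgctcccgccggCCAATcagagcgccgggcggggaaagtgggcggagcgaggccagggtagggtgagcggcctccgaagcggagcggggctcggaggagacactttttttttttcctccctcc
Ezh1: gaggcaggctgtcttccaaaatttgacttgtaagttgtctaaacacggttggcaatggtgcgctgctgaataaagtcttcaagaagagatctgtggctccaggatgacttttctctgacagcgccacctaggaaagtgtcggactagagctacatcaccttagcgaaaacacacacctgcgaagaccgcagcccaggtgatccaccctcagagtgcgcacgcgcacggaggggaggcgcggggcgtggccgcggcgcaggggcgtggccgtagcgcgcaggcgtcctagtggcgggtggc
The Ezh2 promoter held 1 E2F match (TTTGGCGC) and 3 CCAAT matches, and that of Suz12 1 of each kind. In the Ezh1 window these letters were not found, nor in that of Hdac2. Eed had 2 CHR matches and 1 CCAAT match, and Hdac4 had 2 CCAAT matches. Of 32851 mouse promoters of the same length, 1.84% held an E2F match, 19.2% a CHR match and 37.4% a CCAAT box. A match is a string of letters and not a measured binding site. Whether the matches bear on the levels was not tested, and no promoter was read for Hdac1 and Hdac3.

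Genes whose level over the 8 sums was most like that of Ezh2 were Hist1h2ae, H2afx, Cks1b, Tacc3 and Mxd3 (Pearson r 0.987 to 0.996 of log2(CPM + 1), among 6306 genes). All 8 sums come from 2 plates, and each of these genes was highest in the cycling sums. For Ezh1 the nearest genes were Ptcd2, March8, Bag2, Abhd5 and Rpusd1 (r 0.94 to 0.965), all near 22 to 34 CPM on average. In cycling wells of replicate 2, where Ezh1 had no read, they stood at 6.03, 1.58, 0, 0.0718 and 6.75 CPM, in that order. In cycling wells of replicate 1 all Ezh1 reads lay in a single well. The part of the cycling sums in this likeness was not tested.

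Hdac1 and Hdac2 were the most widely read members. Hdac1 (chromosome 4, 129516104 to 129542713, minus strand) had a read in 452 wells and Hdac2 (chromosome 10, 36974544 to 37001889, plus strand) in 403. Hdac1 stood at 356 and 301 CPM in cycling and 378 and 346 in immature wells. It stood at 259 and 179 in intermediate and 160 and 150 in myelinating wells. Cycling and immature wells overlapped, and the other 2 states lay below them in order in both plates. For myelinating against immature wells the log2 change was -0.85 ± 0.22 (0.557-fold), with an adjusted p of 0.0712 by edgeR, where 5.1% of genes were called. With the plate as a replicate block the adjusted p was 0.0426, and by DESeq2 it was 0.00913 (11.4% of genes called). Hdac1 was called there in 5 of 17 alternatives. Against myelinating wells, cycling wells were higher by 0.80 ± 0.22 (adjusted p 0.0453, edgeR), a call kept in 10 of 17 alternatives.

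Hdac2 changed less. It had 189 and 196 CPM in cycling, 149 and 145 in immature, 107 and 107 in intermediate and 98.1 and 103 in myelinating wells. Neighbouring states did not overlap in CPM, and the share of all genes of which this holds was not counted. The log2 change, which uses TMM scaling, went the other way in myelinating against intermediate wells (0.16 ± 0.20, adjusted p 0.942, edgeR). Cycling wells were higher than intermediate ones by 0.81 ± 0.20 (adjusted p 0.0403, edgeR), and with the replicate block the adjusted p was 0.0514. Without the well with most Hdac2 reads in each sum, the change was 0.63 and the adjusted p 0.135. Myelinating against immature wells gave -0.16 ± 0.20 (adjusted p 0.832).

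Per kilobase, Hdac1 exceeded Hdac2 in each sum. The ratio was 3.29 and 3.10 in immature wells and 2.12 and 1.88 in myelinating wells. It was 2.44 and 1.99 in cycling wells and 3.15 and 2.17 in intermediate wells. Whether the ratio differed between states was not tested. Reads of both genes were found in 42 of 106 and 47 of 122 immature wells, and in 41 of 108 and 58 of 113 myelinating wells.

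Hdac3 (chromosome 18, 37935844 to 37955016, minus strand) stood at 124 and 119 CPM in cycling, 63.4 and 71.1 in immature and 76.5 and 66.7 in myelinating wells. Cycling wells were higher than these in both plates, and no comparison called Hdac3 in edgeR. In intermediate wells it stood at 57.6 CPM in replicate 1 and 417 in replicate 2. Of the reads of that second sum, 84.1% lay in 1 well, where Hdac3 took 14596 of 248758 reads and ranked 1 among all its genes, at 58676 CPM. The next highest of all 655 wells had 678 CPM. Without that well replicate 2 had 66.5 CPM. The change of intermediate against immature wells was 1.94 ± 0.69 with it (adjusted p 0.301, edgeR, and 0.0236, DESeq2, which called 6.83% of genes) and 0.15 (adjusted p 0.97, edgeR) with the top well of each sum left out.

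Hdac4 (chromosome 1, 91928779 to 92195699, minus strand) was low in myelinating wells. It had 87.3 and 150 CPM in cycling and 79.5 and 158 in immature wells, with replicate 2 above replicate 1 in both states. Intermediate wells had 46.7 and 26.8 CPM and myelinating wells 18.5 and 17.6. Both myelinating sums lay below all 6 others. Myelinating against immature wells gave -2.34 ± 0.47, 5.05-fold lower (adjusted p 0.0227, edgeR), and Hdac4 was called under all 17 alternatives with a test (adjusted p 5.1e-05 to 0.0421). Cycling wells were above myelinating ones by 2.44 ± 0.47 (adjusted p 0.00997), likewise called under all 17. Intermediate against immature wells gave -1.55 ± 0.46 (adjusted p 0.185, edgeR, and 0.0275, DESeq2), called in 3 of 17 alternatives.

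A read of Hdac4 was found in 78.1% and 80.0% of cycling, 49.1% and 68.9% of immature, 40.5% and 40.0% of intermediate and 41.7% and 39.8% of myelinating wells. After thinning, myelinating wells had 27.4% and 30.1% and immature wells 44.6% and 68.4%. In wells with a read, the median level was 107 and 134 CPM in immature and 14.3 and 26.8 in myelinating wells. Both the share of wells and the level within them were thus lower in myelinating wells. Gm37048, on the other strand within Hdac4, had 90 reads.

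**Figure D3:**
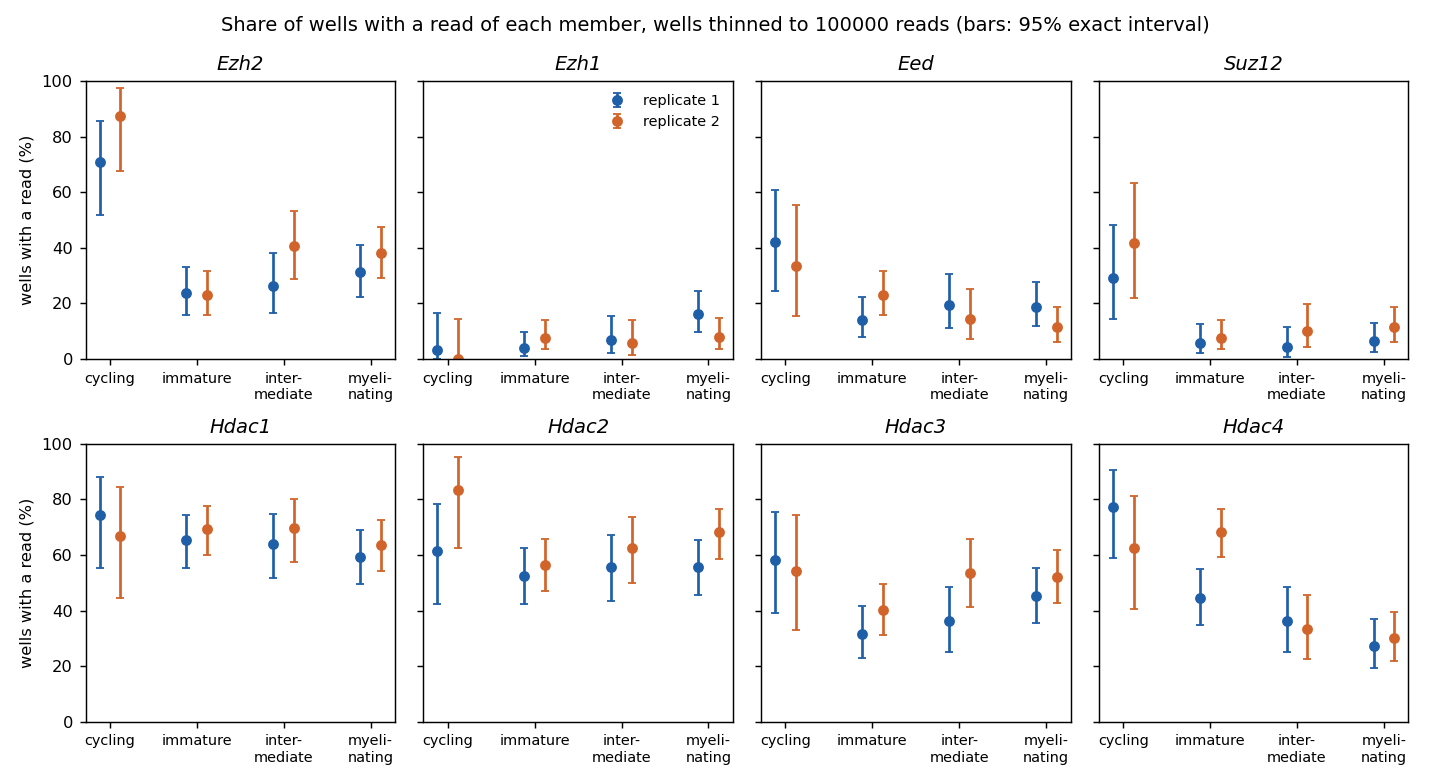
Share of wells with at least 1 read of each gene (y axis, percent) by state (x axis) and replicate (colour) after thinning each well to 100000 reads, with exact 95% intervals. Ezh2 stands at 71.0% and 87.5% in cycling wells and at 23.1% to 40.6% elsewhere.

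Across the 8 genes, edgeR called 1 in cycling against immature wells (2.46% of all genes called) and 0 in intermediate against immature (1.95%). It called 0 in myelinating against intermediate (0.77%) and 1 in myelinating against immature (5.1%). At an unadjusted edgeR p under 0.05 the members numbered 3, 3, 0 and 2, in that order. Beside them stood 2132, 1516, 1295 and 2258 of all 13892 genes. The 3 members in intermediate against immature wells included Hdac3, with the single high well. DESeq2 called 2 members in intermediate against immature wells, where it called 6.83% of all genes: Hdac4, and Hdac3 with the single high well included. The median change of the 8 was 0.76 in cycling against immature wells, beside -0.13 over all genes tested, and -0.09 beside -0.04 in myelinating against immature wells. Scaling by library size alone moved the median of all genes to -0.23 and -0.42, and the changes of Hdac1 and Hdac4 in the latter comparison to -1.23 and -2.72. Cycling wells held reads of a median of 5 of the 8 genes in each plate and wells of each other state 3, at the depths given above. Over all genes, the median cycling well had 4023.5 and 3989 detected genes. The median was 2925 and 3188.5 in immature, 3291 and 3700 in intermediate and 3723.5 and 4056 in myelinating wells. Whether the members differed from all genes in this was not tested.

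**Figure D4:**
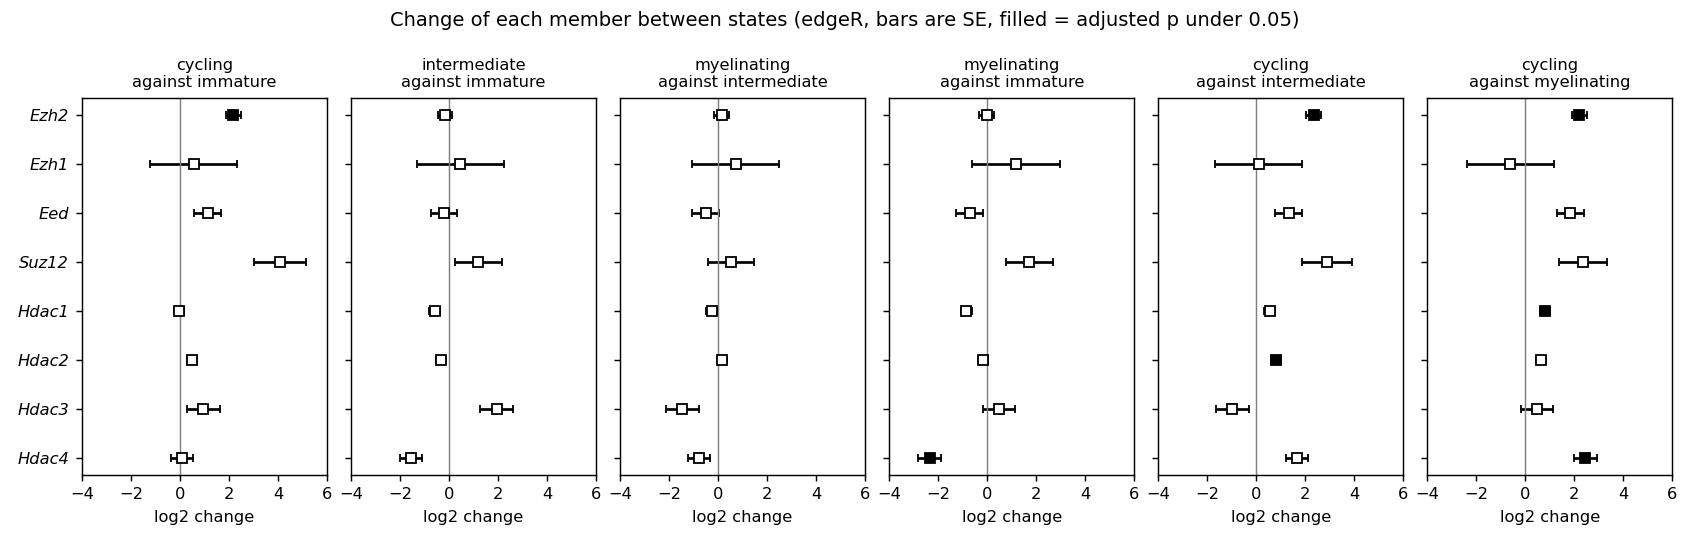
Log2 change of each of the 8 genes in 6 comparisons between states (edgeR, x axis), with SE as bars. Filled squares passed an adjusted p of 0.05: Ezh2 in each comparison with cycling wells, Hdac4 in 2 comparisons with myelinating wells, and Hdac1 and Hdac2 in 1 each.

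Immature wells were further divided by DNA replication genes (5 reads in 3 of 20 genes), giving 23 and 42 replication-positive wells. Ezh2 stood at 41.6 and 45.5 CPM in these and at 53.8 and 53.5 in the rest, a log2 change of -0.32 ± 0.33 (adjusted p 0.898, edgeR). Eed went the other way, with 58.3 and 53.3 CPM against 19.1 and 9.39 (1.95 ± 0.62, adjusted p 0.698, edgeR). Hdac4 had 120 and 219 CPM against 68.9 and 122, which overlap (0.81 ± 0.46, adjusted p 0.767, edgeR). edgeR called 0% of 13849 genes here, with 862 at an unadjusted p under 0.05, and DESeq2 called 310. The median replication-positive well had 454740 and 451527 reads, the median negative one 484939 and 411899.

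Partners of these enzymes were read from 10 lists, of which 95 of 97 genes were tested. They gave 1 call in cycling against immature wells and 2 in myelinating against immature wells, or 1.05% and 2.11% beside 2.46% and 5.1% of all genes. Their median log2 change was -0.05 and -0.12. Intermediate against immature and myelinating against intermediate wells gave 1 call each. Cycling against intermediate and against myelinating wells gave 6 each, 6.32% beside 9.42% and 12.7% of all genes. No list had more than 2 calls in any comparison (edgeR).

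Sirt2, a deacetylase of the sirtuin class that is abundant in myelinating glia, was the 1 gene called among the 12 other deacetylases tested (edgeR). It rose from 263 and 262 CPM in immature wells to 452 and 423 in intermediate and 744 and 700 in myelinating wells, and had 141 and 150 in cycling ones. Each step passed the test (edgeR): intermediate against immature 0.88 ± 0.15 (adjusted p 0.0236), myelinating against intermediate 0.97 ± 0.15 (adjusted p 0.0245) and cycling against immature -0.75 ± 0.15 (adjusted p 0.0401). Its direction is opposite to that of Hdac4. Rcor1, a CoREST scaffold, was higher in myelinating than immature wells (27.7 and 19.2 CPM against 3.73 and 5.06, adjusted p 0.0393, edgeR).

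Among PRC2 partners, 9 of 10 were tested. The histone chaperone Rbbp7 had 426 and 429 CPM in cycling, 257 and 306 in immature, 191 and 243 in intermediate and 122 and 146 in myelinating wells. It was higher in cycling than in intermediate (0.95 ± 0.20, adjusted p 0.0182, edgeR) and myelinating wells (1.39 ± 0.20, adjusted p 0.0023). Rbbp4, its paralog, was called against myelinating wells only (0.69 ± 0.19, adjusted p 0.0444). Phf19, a PRC2 accessory protein, was called against intermediate wells at a mean of 6.13 CPM, and is named outside the rule for naming genes.

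Further calls in cycling wells were Sap30 of Sin3 (56.4 against 3.40 CPM in myelinating wells, means of 2 plates, adjusted p 0.0056, edgeR) and Mbd3 of NuRD (adjusted p 0.0239). Of acetyltransferases, which oppose the deacetylases, Hat1 passed against intermediate and myelinating wells (2.27 ± 0.35 and 1.76 ± 0.35) and Crebbp against intermediate wells (1.13 ± 0.27). No gene of the NCoR and SMRT list, of the class IIa partners, or of the demethylases and deubiquitinase that undo Polycomb marks passed in any comparison (edgeR).

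**Figure D5:**
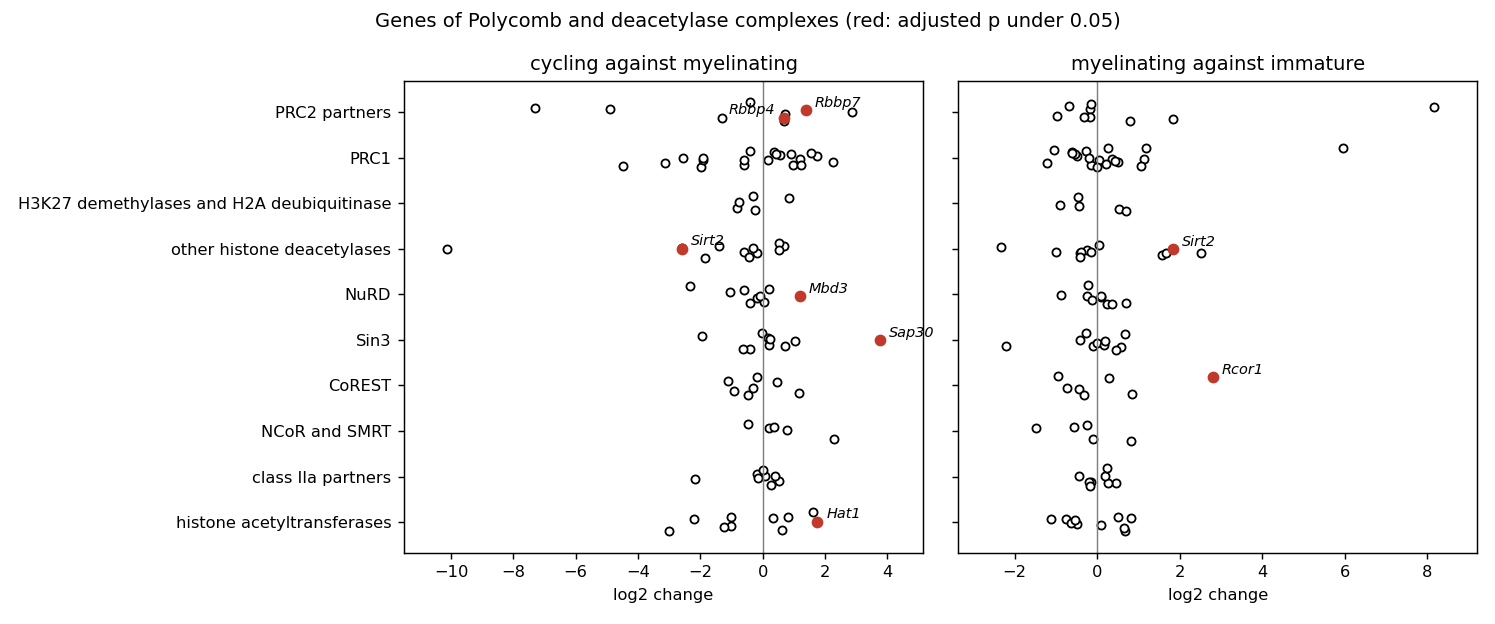
Log2 change (edgeR, x axis) of each tested gene of 10 lists of Polycomb and deacetylase complexes (y axis), for cycling against myelinating and myelinating against immature wells. Red points passed an adjusted p of 0.05. Sirt2 lies on opposite sides in the 2 panels. Points far from 0 belong to genes with few reads, whose fitted change is no bound.

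Genes that these enzymes have been linked to in SCs were described as well. Of 10 Polycomb-linked genes, 5 passed the filter. Cdkn1c, an inhibitor of the cell cycle, stood at 251 and 208 CPM in cycling, 1908 and 861 in immature, 3078 and 2005 in intermediate and 91.2 and 49.2 in myelinating wells. It was lower in cycling than in immature wells by 2.49 on the log2 scale (-2.49 ± 0.42, adjusted p 0.0206, edgeR) and lowest in myelinating wells. Igfbp2, which binds insulin-like growth factors, had 1.32 and 1.58 CPM in immature against 39.0 and 19.4 in myelinating wells, which did not pass the test (adjusted p 0.083, edgeR), and was lower in cycling than in intermediate and myelinating wells (adjusted p 0.0272 and 0.0239, edgeR).

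Of 7 deacetylase-linked regulators, 4 passed in myelinating against immature wells, where 5.1% of all genes did. Egr2, the master factor of myelination, rose (1.34 ± 0.27, adjusted p 0.0246, edgeR), as did its co-repressor Nab2 (1.52 ± 0.29, adjusted p 0.0182). Jun, an inhibitor of myelination, fell by 2.92 on the log2 scale (adjusted p 0.0047), from 868 and 1234 to 148 and 64.8 CPM. Zeb2, a repressor that acts with deacetylases, fell by 1.14 (adjusted p 0.0167).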

How the data were processed

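RNA of single sorted SCs was read with Smart-Seq2 on 2 plates. The authors deposited raw read counts per gene and well. The submitters' processing notes name bcl2fastq, STAR 2.6.1c, featureCounts and GRCm38.p5, while the methods of the paper name a human build although identifiers are of mouse. Of 25700 genes, 25587 were matched to GENCODE vM21 (GRCm38), which gave symbols, coordinates and exon lengths. Strand was not stated to be used in counting.

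Wells with 1500 or more genes outside the corners were kept and no doublet caller was run. Cycling wells had 5 reads in 3 of 10 mitosis genes. Reads were summed per plate and state into 8 sums, holding 13925435 to 98479212 reads. They were tested with edgeR 4.0.16 in R 4.3.3 (quasi-likelihood, TMM, filterByExpr, Benjamini-Hochberg over all genes tested, threshold 0.05). The 12 rule genes were left out. The spread was shared by all states, with 4 residual degrees of freedom. CPM uses total reads and log2 changes use TMM scaling, so they can differ. Self-tests ran on simulated counts. DESeq2 1.42.0, other scaling, filters, state borders and wells were alternatives.

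The 4 sums of 1 plate share a pool of animals, so that states could be paired by plate. The fit reported held state alone and did not use this pairing. Only the setting named replicate block did. Deviations of a plate's sums from state means correlated at r from -0.0095 to 0.122 over 1990 genes. With 2 plates a side, p-values of a single gene rest on the spread shared across genes.

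Members and lists were chosen with earlier results of these data known. Genes named were the 8 members, up to 3 called genes per list and direction with a mean of 10 CPM or more, and the 5 most like Ezh2 and Ezh1 among genes of 20 CPM or more. Results on some list genes and markers are not reported here.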

Additional observations from a re-analysis of the deposited data

How the results depend on the processing

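Besides the fit reported, 19 settings were tried. Of 1008 values of log2 change, 873 kept direction and side of the threshold, or moved by less than the spread, 15 lost and 27 gained a call, 56 untested single-plate values moved and 37 changed sign. Ezh2 in the 3 comparisons with cycling wells and Hdac4 in myelinating against immature and cycling against myelinating wells kept their calls in all 17 alternatives with a test.

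Members called numbered 1 in cycling against immature wells and 2 by DESeq2 and with no filter. In intermediate against immature wells they were 0, and 2 by DESeq2, 2 with no filter and 1 with thinned wells. In myelinating against intermediate wells they were 0, and 1 with no filter. In myelinating against immature wells they were 1, and 2 by DESeq2, by library size, with no filter, with the replicate block and with thinned wells. In cycling against intermediate wells they were 2, and 4 by DESeq2 and 1 with the replicate block, an Ncmap border of 20 CPM, a Pmp22 border of 20000 CPM, without plate columns 8 and 16, and without replication-positive wells. In cycling against myelinating wells they were 3, and 6 by DESeq2, 5 by library size and 5 with thinned wells. Small moves of a count, also to lower ones, were taken as no change and are not listed. In cycling against myelinating wells Hdac1 was called in 10 of 17 alternatives, and Eed and Hdac2 in 3 each. The replicate block changed no other count of members called. Calls among all genes moved with the setting as well. DESeq2 called 10.6%, 6.83% and 11.4% of all genes in cycling, intermediate and myelinating against immature wells. The fit reported called 2.46%, 1.95% and 5.1% there. For other settings and comparisons only the range of all genes called is given below.

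Changes of sign were in values not called in the fit reported, and 1 was called after the change, Ezh1 in cycling against intermediate wells without top wells (adjusted p 0.0323). For cycling against immature wells Ezh1 gave -0.19 with the replicate block, -0.62 thinned and -10.24 without top wells, Hdac1 gave 0.038 by DESeq2, 0.038 by RLE scaling and 0.0085 with Ncmap at 20, and Hdac4 gave -0.0043 by library size and -0.036 without top wells. For cycling against intermediate wells Ezh1 gave -0.29 with the replicate block, -1.25 thinned, -0.034 with Ncmap at 5, -0.15 with Pmp22 at 40000 and -10.83 without top wells, and Hdac3 gave 0.74 without top wells. For intermediate against immature wells Eed gave 0.67 without replication-positive wells. For myelinating against intermediate wells Ezh2 gave -0.099 by library size, -0.035 thinned and -0.018 with Pmp22 at 40000, Suz12 gave -0.14 with Pmp22 at 20000 and -1.09 at 40000, Hdac2 gave -0.086 by library size and Hdac3 gave 0.43 without top wells. For myelinating against immature wells Ezh2 gave 0.012 by DESeq2, 0.012 by RLE scaling, 0.064 with 2500 genes, 0.033 and 0.021 with Ncmap at 5 and 20, 0.053 without the 5% of wells with most genes and 0.062 without top wells, and Eed gave 0.17 without replication-positive wells. In replication-positive against negative wells Ezh1 gave 0.029 with 2500 genes and 0.45 without top wells, Hdac2 gave -0.015 without top wells, and Hdac3 gave -0.12 with the replicate block, -0.35 thinned, -0.0080 without the 5% of wells with most genes and -0.11 without top wells. The cause was not tested, except that top wells were left out by construction.

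All genes called ranged over the settings from 171 to 1352 in cycling against immature, 188 to 930 in intermediate against immature, 78 to 643 in myelinating against intermediate, 586 to 1520 in myelinating against immature, 1048 to 2698 in cycling against intermediate and 1538 to 3208 in cycling against myelinating wells. The settings without top wells and the comparisons of cycling with intermediate and myelinating wells were chosen after seeing the data. With 1 plate no test was possible. Ezh1 and Suz12 had reads in 61 and 95 wells, and low depth and low level cannot be told apart in a well without a read.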
